A study of Mus musculus with 8 samples.

Results

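The growth hormone and Igf1 axis of the mouse liver was described through 10 genes, taken by symbol as its receptors, hormone, carriers and feedback inhibitors: *Ghr*, *Prlr*, *Egfr*, *Igf1*, *Igfals*, *Igfbp1*, *Igfbp2*, *Socs2*, *Socs3* and *Cish*. Each symbol occurred on 1 of the 23282 rows of the count tables. Liver RNA came from C57BL/6 mice that were 4 weeks old and recorded as male. The control group was injected with saline and the endotoxemic group with LPS alone, 25 mg/kg lipopolysaccharide, the endotoxin of gram-negative bacteria. The LGK974 group received 60 mg/kg LGK974, an inhibitor of Porcupine that blocks the secretion of Wnt proteins, together with 25 mg/kg LPS. For this group the sample labels give the agent LGK974 alone, and both doses come from the study's own account of its groups. Livers were collected 6 h after LPS, and LGK974 was given 2 h before LPS in most experiments. No libraries of mice given LGK974 without LPS were analysed here, and the number of mice behind each library is not given in the sources used here, so the p-values measure only the spread between libraries.

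Growth hormone acts on hepatocytes through its receptor Ghr, the kinase Jak2 and the transcription factor Stat5, which drive the synthesis of Igf1, the circulating growth factor. In blood, Igf1 is carried by binding proteins (Igfbp), and Igfals is the liver-made subunit that stabilizes the large carrier complex. Cish, Socs2 and Socs3 are cytokine-inducible inhibitors that dampen receptor signaling, and the liver's loss of sensitivity to growth hormone during inflammation is a known feature of sepsis. The pattern of growth hormone release differs between the sexes, and many liver genes, *Prlr* among them, are sex-biased for this reason.

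The tables held 2 control, 4 endotoxemic and 2 LGK974 libraries. Endotoxemic libraries 3 and 4 had the same counts as libraries 1 and 2 on every row and were counted once, which left 2 libraries in each group, with totals from 9142116 to 15222439 counts. The smallest signal taken as detectable, 3 counts, corresponded to 0.196 to 0.327 CPM (counts scaled to the library total with TMM factors), a floor for counting error only. Hepatocyte markers on rows in genomic order (7 genes) summed to between 67420 and 115900 CPM in every library. This sum cannot be read as a steady share of hepatocytes, because abundant genes in it moved in opposite directions. Mean *Alb* was 68830, 30650 and 23730 CPM in the control, endotoxemic and LGK974 groups, and mean *Fgb* was 10090, 42800 and 39800 CPM. *Xist*, expressed from the inactive X chromosome of females, had between 1171 and 3115 counts in the control and endotoxemic libraries, against 3 and 7 with LGK974. *Ddx3y*, a Y-linked gene, had 0 counts in those 4 libraries and 1755 and 1392 with LGK974. *Kdm5d* and *Eif2s3y* were likewise at 0 outside the LGK974 group, and *Uty* had 99 and 126 counts in it against at most 1 elsewhere. The 4 control and endotoxemic libraries thus went against the sex recorded for the mice, and in every comparison with the LGK974 group the sex of the mice and the treatment cannot be told apart. Of the 23134 rows with a known position, 22346 followed the genes along the chromosomes, and 579 carried a symbol that belongs more than 2 Mb away. Of the 10 genes, *Egfr* alone stood on such a row, so its values are given separately, and 9 genes stood between genomic neighbours. An exon of *Prlr* overlaps one of *Gm21973* on the same strand, and exons of *Cish* overlap *Gm17041* and *Gm17040* on the other strand, so that reads there could be divided between genes.

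In endotoxemic against control livers, both hormone receptors on rows in order, Igf1, its carrier subunit and Igfbp2 fell, while *Socs2* and *Socs3* rose. Of the 9 genes, 5 fell and 2 rose at an adjusted p below 0.05 in edgeR's quasi-likelihood test, where 23.0% of the 12701 tested rows fell and 20.4% rose. The median log2 fold change of the 9 genes was −1.04, against 0.01 over all tested rows. The libraries of both groups did not overlap for 8 of the 9 genes, as for 77.1% of all tested rows. Leaving out 1 of the 6 libraries in turn left 5 genes that fell each time and 1 to 3 that rose, and *Igfbp1* also rose without the filter on low counts (0.75, adjusted p = 0.00518) or with these groups alone in the fit (0.73, adjusted p = 0.0118). In LGK974 against endotoxemic livers, *Igfals* was higher and *Cish* and *Prlr* were lower, which makes 1 gene higher and 2 lower of 9 where 2.80% of rows were higher and 2.82% lower. These groups did not overlap for 7 of the 9 genes, as for 52.5% of all tested rows. None of the 3 differences passed when these groups alone entered the edgeR fit, where the adjusted p was 0.146 for *Igfals*, 0.0539 for *Cish* and 0.0878 for *Prlr*, against unadjusted p values below 0.05 for 6 of the 9 genes and 2911 of all 12701 rows in the full fit and the same 1 higher and 2 lower counts with DESeq2. Leaving out 1 library in turn left 0 to 2 of the 9 genes higher and 0 to 4 lower. Without the filter on low counts 1 was higher and 6 were lower, where *Igfbp1* (adjusted p = 3.68e-07), *Igfbp2* (0.0139), *Socs2* (0.0112) and *Socs3* (0.0179) passed as well. In LGK974 against control livers, 6 of the 9 genes were lower and 1 was higher, where 17.7% of rows were lower and 16.4% higher, and 7 of the 9 did not overlap, as for 68.1% of all tested rows. Here leaving out 1 library in turn gave 5 to 7 lower and 1 to 2 higher, and the fit without the filter gave 7 lower, with *Igfbp1* (adjusted p = 0.0268), and 2 higher, with *Socs2* (adjusted p = 4.6e-12). In bulk liver, fewer cells of a type and less RNA per cell cannot be told apart. Hepatocyte markers moved too: 4 of 7 were lower and 1 was higher in endotoxemic than in control livers, with a median log2 fold change of −1.00, and their part in the results was not tested.

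**Figure D1:**
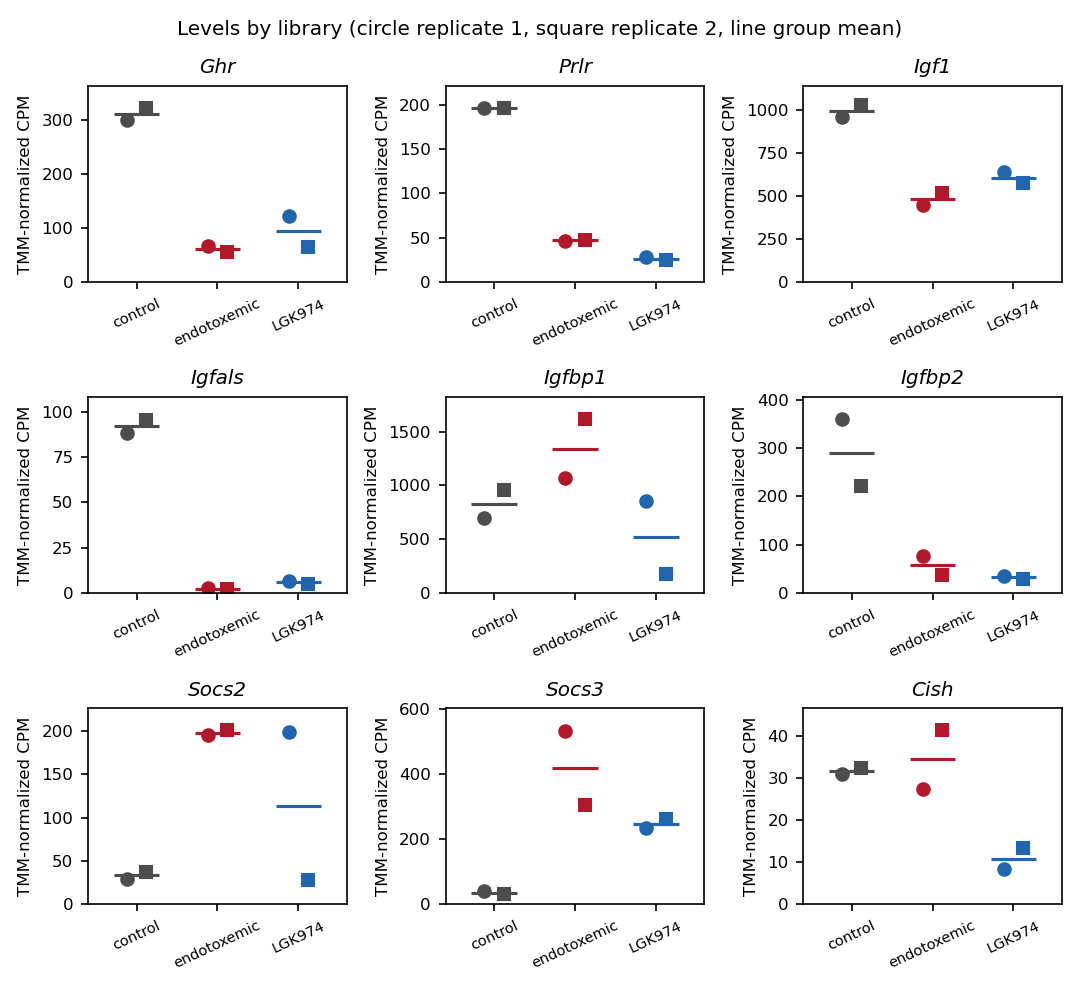
Level of 9 genes in each library, in CPM from 0, for the control, endotoxemic and LGK974 groups (circle, replicate 1; square, replicate 2; line, mean of 2 libraries). The control libraries lie above the other libraries for *Ghr*, *Prlr*, *Igf1*, *Igfals* and *Igfbp2*, and the LGK974 libraries lie far apart for *Socs2* (198.6 and 27.75) and *Igfbp1* (858.7 and 179.9).

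*Ghr*, the growth hormone receptor (chromosome 15 of GRCm38, 3317760 to 3583492, minus strand), had 298.4 and 321.8 CPM with saline, 66.56 and 54.68 with LPS alone and 122.4 and 64.69 with LGK974. Every control library was above every other library, and one LGK974 library lay within the range of the endotoxemic group. The fall in the endotoxemic group was 5.11-fold, on the log2 scale −2.35 (SE 0.30, edgeR adjusted p = 0.000269). The LGK974 group was 3.32-fold below the control group (log2 fold change −1.73, SE 0.29, edgeR adjusted p = 0.00191). Between the LGK974 and endotoxemic groups it differed by 0.63 on the log2 scale (SE 0.29, edgeR adjusted p = 0.233), which became 0.10 (adjusted p = 0.778) without LGK974 library 1 and 1.01 (adjusted p = 0.00438) without LGK974 library 2.

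*Prlr*, the prolactin receptor, shares the Jak2 and Stat5 pathway with *Ghr* and lies 6.59 Mb from it on chromosome 15 (10177238 to 10349180, plus strand). Its level was 196.4 and 196.3 CPM with saline, 46.81 and 47.97 with LPS alone and 27.78 and 25.31 with LGK974. The 3 groups did not overlap, and replicates differed little. *Prlr* fell 4.14-fold in the endotoxemic group (log2 fold change −2.05, SE 0.19, edgeR adjusted p = 3.8e-05) and was 7.40-fold lower in LGK974 than in control livers (−2.89, SE 0.19, edgeR adjusted p = 7.8e-06). Compared with the endotoxemic group, it was 1.79-fold lower in the LGK974 group (−0.84, SE 0.18, edgeR adjusted p = 0.034). This last call was lost, with adjusted p from 0.0958 to 0.231, when control library 1, control library 2, endotoxemic library 1 or endotoxemic library 2 was left out. *Prlr* is female-biased in mouse liver, and the LGK974 libraries were those with Y-linked counts, so sex and treatment cannot be told apart in comparisons with that group. The 4.14-fold fall was between 2 groups that both had *Xist* counts.

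*Igf1* (chromosome 10, 87858265 to 87937042, plus strand) had 962 and 1029 CPM with saline, 451.8 and 519.1 with LPS alone and 640.3 and 575.8 with LGK974. The control group was highest and the endotoxemic group lowest, with no overlap between any groups. *Igf1* fell 2.05-fold in the endotoxemic group (log2 fold change −1.04, SE 0.19, edgeR adjusted p = 0.00214). The LGK974 group was 1.64-fold below the control group (−0.71, SE 0.19, edgeR adjusted p = 0.0173), a call lost without control library 1 (adjusted p = 0.0899) or control library 2 (adjusted p = 0.127). Set against endotoxemic livers, its log2 fold change came to 0.32 (SE 0.19, edgeR adjusted p = 0.338). Of all tested rows in genomic order, the 5 closest to *Igf1* in centred log2 CPM over the 6 libraries were *Opa1*, *Masp2*, *Suclg1*, *Acad8* and *Ces2a*, at Euclidean distances of 0.082 to 0.182. Their log2 fold changes in endotoxemic against control livers ranged from −1.08 to −0.98. Likeness to *Igf1* there follows from how these rows were chosen, over the same 6 libraries.

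*Igfals*, the acid-labile subunit (chromosome 17, 24865997 to 24882010, plus strand), had 952 and 1459 counts with saline, 24 and 21 with LPS alone and 91 and 74 with LGK974. On the normalized scale this was 88.36 and 95.36, then 2.619 and 2.238, then 6.869 and 5.008 CPM, so that the groups were apart and the control group was far above both others. The fall in the endotoxemic group was the largest of the 9 genes, at 37.7-fold (log2 −5.24, SE 0.28, edgeR adjusted p = 2.16e-06). The LGK974 group was 15.5-fold below the control group (−3.95, SE 0.25, edgeR adjusted p = 5.24e-06). It was 2.44-fold above the endotoxemic group (1.28, SE 0.27, edgeR adjusted p = 0.0305). The latter call was lost when either control library (adjusted p = 0.0833 in each case), endotoxemic library 1 (0.182) or endotoxemic library 2 (0.236) was left out.

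**Figure D2:**
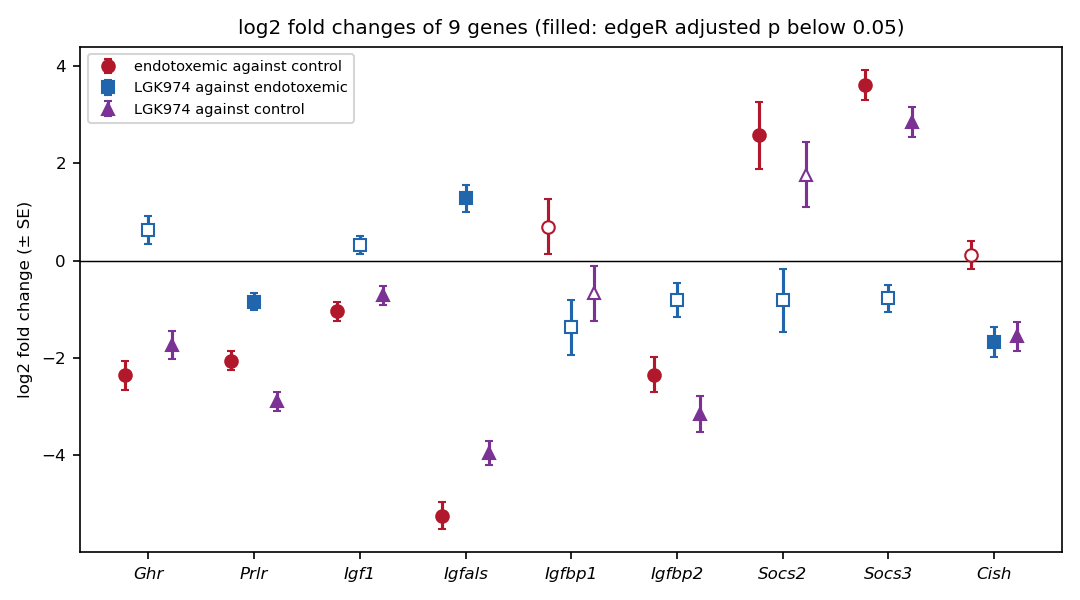
The log2 fold change of 9 genes in 3 comparisons (y axis, points with SE from edgeR's quasi-likelihood test; filled symbols, adjusted p below 0.05). *Igfals* has the largest change, −5.24 in endotoxemic against control livers, and *Socs3* the largest rise, 3.61; the comparisons share libraries and are not independent.

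The binding proteins moved differently from each other. *Igfbp2* (chromosome 1, 72824503 to 72852474, plus strand), a carrier of circulating Igf1, had 359.3 and 222.1 CPM with saline, 76.82 and 37.84 with LPS alone and 36.23 and 29.3 with LGK974. The control libraries were highest although they differed 1.62-fold from each other. *Igfbp2* fell 5.07-fold in the endotoxemic group (log2 fold change −2.34, SE 0.36, edgeR adjusted p = 0.00081) and was 8.87-fold lower in LGK974 than in control livers (−3.15, SE 0.37, edgeR adjusted p = 0.000235). Between the LGK974 and endotoxemic groups it differed by −0.81 on the log2 scale (SE 0.35, edgeR adjusted p = 0.208).

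*Igfbp1* (chromosome 11, 7197782 to 7202546, plus strand), the binding protein that fasting and stress induce in liver, had 694.9 and 955.7 CPM with saline and 1064 and 1614 with LPS alone. Its LGK974 libraries had 858.7 and 179.9 CPM, one within the control range and the other below all 5 remaining libraries. It differed by 0.70 on the log2 scale in endotoxemic against control livers (SE 0.56, edgeR adjusted p = 0.346) and −1.37 in LGK974 against endotoxemic livers (SE 0.57, edgeR adjusted p = 0.197). Without LGK974 library 1 these were 0.70 and −2.89, and without LGK974 library 2 they were 0.70 and −0.64. The endotoxemic against control value was 0.48 or 0.95 without control library 1 or 2, and 1.03 or 0.37 without endotoxemic library 1 or 2. LGK974 against control livers gave −0.67 (SE 0.56, edgeR adjusted p = 0.395), which was −2.19 (adjusted p = 2.41e-05) without LGK974 library 1 and 0.06 (adjusted p = 0.867) without LGK974 library 2. The spread of *Igfbp1* between the LGK974 libraries, 4.76-fold, was reached by 0.677% of tested rows.

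Of the 3 feedback inhibitors among the 10 genes, *Socs3*, which the gp130 cytokines induce through Stat3, rose most. *Socs3* (chromosome 11, 117966079 to 117970047, minus strand) had 39.17 and 29.41 CPM with saline, 532.2 and 304.4 with LPS alone and 232.3 and 259.9 with LGK974. The control libraries were lowest, and the endotoxemic libraries were above the LGK974 libraries. The rise was 12.2-fold in the endotoxemic group (log2 fold change 3.61, SE 0.31, edgeR adjusted p = 2.76e-05) and 7.19-fold in LGK974 against control livers (2.85, SE 0.30, edgeR adjusted p = 0.000117). The LGK974 and endotoxemic groups differed by −0.77 on the log2 scale (SE 0.28, edgeR adjusted p = 0.141).

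*Socs2*, a Stat5-induced inhibitor of growth hormone signaling (chromosome 10, 95385362 to 95417180, minus strand, 7.45 Mb from *Igf1*), had 28.87 and 37.45 CPM with saline and 195.3 and 201.4 with LPS alone. In the LGK974 group, library 1 had 198.6 CPM, within the endotoxemic range, and library 2 had 27.75 CPM, below both control libraries. This 7.05-fold spread was reached by 0.252% of tested rows, where the median row differed 1.31-fold between the LGK974 libraries. *Socs2* rose 5.97-fold in the endotoxemic group (log2 fold change 2.58, SE 0.69, edgeR adjusted p = 0.0147). That call was lost without control library 1 (adjusted p = 0.103), control library 2 (0.0699) or endotoxemic library 2 (0.0545). The log2 fold change of the LGK974 group was −0.81 compared with the endotoxemic group (SE 0.65, edgeR adjusted p = 0.499) and 1.77 compared with the control group (SE 0.67, edgeR adjusted p = 0.0711). Without LGK974 library 1 these values were −2.84 (adjusted p = 3.59e-06) and −0.26 (adjusted p = 0.393), and without LGK974 library 2 they were 0.00 (adjusted p = 1) and 2.58 (adjusted p = 2.67e-07).

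*Cish*, an inhibitor and a direct Stat5 target (chromosome 9, 107296026 to 107302784, plus strand), had 31.09 and 32.29 CPM with saline, 27.39 and 41.57 with LPS alone and 8.228 and 13.4 with LGK974. The endotoxemic libraries spanned the control libraries, and the LGK974 libraries lay below all others. The endotoxemic group differed from the control group by 0.12 on the log2 scale (SE 0.29, edgeR adjusted p = 0.76). In the LGK974 group *Cish* was 3.18-fold lower than in endotoxemic livers (−1.67, SE 0.30, edgeR adjusted p = 0.0181) and 2.92-fold lower than in the control group (−1.55, SE 0.30, edgeR adjusted p = 0.00394). The difference from the endotoxemic group no longer passed without control library 2 (adjusted p = 0.0501) or without endotoxemic library 2 (−1.34, adjusted p = 0.175).

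Stat factors bind the palindrome TTCNNNGAA, which reads the same on both strands, and it was searched in RefSeq promoter windows of GRCm38.p6, 300 bases long, from 250 before to 50 after a gene's start. Windows were found for 9 of the 10 genes, and 5 of their 15 windows held at least 1 match, against 8.3% of all 32851 windows. The matches lay in windows of *Cish*, *Socs3*, *Igfals* and *Prlr*. *Cish* held 2 matches that begin 1 and 12 bases into the transcribed side of the start, and 0.457% of all windows held 2 or more. The match of *Socs3* begins 154 bases before the start and that of the *Igfals* window shown 58 bases before it, and another *Igfals* window has one 236 bases before its start. In *Prlr* the match TTCTAGGAA begins 110 bases before 1 of its 3 starts. Windows of *Igf1*, *Ghr*, *Igfbp1*, *Igfbp2* and *Egfr* did not hold these letters. The windows of *Cish* (chr9:107296409-107296708, plus strand), *Socs3* (chr11:117969317-117969616, minus strand) and *Igfals* (chr17:24877981-24878280, plus strand) are printed 5′ to 3′ because their genes had unlike patterns over the 3 groups, and capitals mark the matches.
Cish: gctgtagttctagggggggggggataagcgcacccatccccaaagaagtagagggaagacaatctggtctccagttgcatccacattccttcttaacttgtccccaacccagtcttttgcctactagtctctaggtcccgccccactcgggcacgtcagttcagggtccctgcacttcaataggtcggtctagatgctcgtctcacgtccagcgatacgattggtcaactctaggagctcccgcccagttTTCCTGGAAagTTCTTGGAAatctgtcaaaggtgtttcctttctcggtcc
Socs3: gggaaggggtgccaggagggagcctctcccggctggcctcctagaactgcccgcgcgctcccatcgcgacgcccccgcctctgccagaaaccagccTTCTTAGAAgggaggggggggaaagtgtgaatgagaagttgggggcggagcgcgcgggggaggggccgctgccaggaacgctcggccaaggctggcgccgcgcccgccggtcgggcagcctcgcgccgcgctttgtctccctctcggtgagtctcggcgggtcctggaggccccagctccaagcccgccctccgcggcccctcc
Igfals: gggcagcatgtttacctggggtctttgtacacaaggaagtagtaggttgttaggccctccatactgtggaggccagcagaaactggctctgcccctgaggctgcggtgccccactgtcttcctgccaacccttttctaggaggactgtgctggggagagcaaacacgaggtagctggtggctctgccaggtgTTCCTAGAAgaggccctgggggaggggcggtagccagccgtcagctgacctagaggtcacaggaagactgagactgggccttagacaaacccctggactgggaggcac

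*Egfr*, the epidermal growth factor receptor, whose level in liver depends on growth hormone, lies on chromosome 11 (16752203 to 16918158, plus strand), 9.55 Mb from *Igfbp1*. Its symbol stood on a row of chromosome 6, between *E130112N10Rik* and *4930417O13Rik*, and that row had 286 and 391 counts with saline, 8 and 0 with LPS alone and 1 and 3 with LGK974. The row between *Sec61g* and *Eldr*, the genomic neighbours of *Egfr*, carried the symbol *Ass1* and had 46 and 57 counts with saline, 1333 and 1132 with LPS alone and 2501 and 915 with LGK974. On both rows the control libraries stood apart from all others, in opposite directions. Over the 445 misplaced symbols for which a row at the genomic place was found, Spearman's rho between control and endotoxemic counts was 0.065 by symbol and of 0.807 with the endotoxemic counts taken from the row at the genomic place, a description across genes, which are not replicates. By symbol, the log2 fold change was −5.88 in endotoxemic against control livers. With the endotoxemic and LGK974 counts taken from the row at its genomic place it was 2.35, and for LGK974 against control livers the values were −7.42 and 2.26. No direction was read for *Egfr*.

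**Figure D3:**
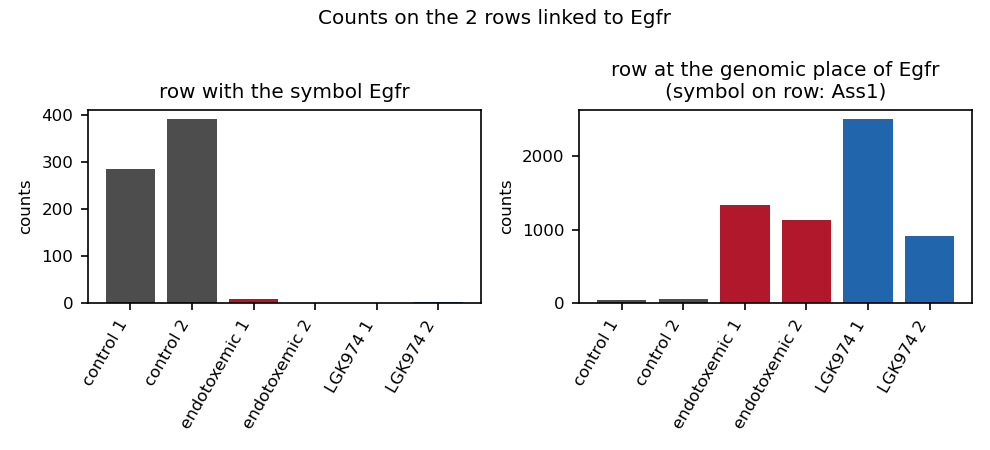
Counts in each of the 6 distinct libraries (y axis, linear from 0) on the row that carries the symbol *Egfr* (left) and on the row at the genomic place of *Egfr*, which carries the symbol *Ass1* (right). The control libraries have 286 and 391 counts on the first row and 46 and 57 on the second, where the endotoxemic libraries have 1333 and 1132.

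The other genes of the pathway were described from 4 lists, counting rows in genomic order. Calls of single genes in these and the later lists were not examined with 1 library left out or with only the compared groups in the fit. Growth hormone and prolactin receptor signaling had 17 tested genes, of which 6 rose and 11 did not pass in endotoxemic against control livers (20.4% of all tested rows rose and 23.0% fell), with a median log2 fold change of 0.65. *Socs1*, an inhibitor of Jak kinases, had 17 and 7 counts with saline, 1538 and 1005 with LPS alone and 626 and 364 with LGK974, with no overlap between groups. It rose by 7.16 on the log2 scale in the endotoxemic group (SE 0.56, edgeR adjusted p = 1.77e-05). *Ptpn1*, a phosphatase that acts on Jak2, rose from 29.59 ± 3.58 (SD, n = 2) to 268.4 ± 4.94 CPM (log2 fold change 3.18, edgeR adjusted p = 7.4e-06). In LGK974 against endotoxemic livers, 4 of the 17 genes were lower and 13 did not pass, where 2.82% of all rows were lower. *Socs1* was among them (−1.94, edgeR adjusted p = 0.0284). Compared with the control group, 5 were higher in the LGK974 group and 12 did not pass, where 16.4% of all rows were higher. The largest rises were those of *Socs1* (5.22) and *Ptpn1* (2.24). *Jak2*, *Stat5b*, *Stat3* and *Igfbp4* stood on rows out of genomic order, and their values were not read.

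The gp130 list holds the receptor chains and kinases that act upstream of *Socs3*. Of its 6 tested genes, 3 rose and 2 fell in endotoxemic against control livers, beside 20.4% and 23.0% of all tested rows. *Osmr*, the oncostatin M receptor, rose from 2.082 ± 0.845 to 24.83 ± 3.31 CPM (SD, n = 2; log2 fold change 3.54, edgeR adjusted p = 5.42e-05), and *Il6st*, which encodes gp130, rose by 1.14 on the log2 scale (edgeR adjusted p = 0.00971). *Lifr*, the receptor of leukemia inhibitory factor, fell from 228.3 ± 56.7 to 38.8 ± 10.4 CPM (−2.56, edgeR adjusted p = 8.93e-05), and *Il6ra*, the Il6 receptor, fell too (−0.67, edgeR adjusted p = 0.0447), although DESeq2 called 1 fall in this list. The receptor chains of this family thus changed in both directions. Between the LGK974 and endotoxemic groups, edgeR and DESeq2 both called 0 of the 6, and 1 had an unadjusted p below 0.05 in edgeR, as did 2911 of all 12701 rows. Compared with the control group, *Osmr* was higher in the LGK974 group (2.88), and *Lifr* and *Il6ra* were lower (−2.38 and −0.79).

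Of the 12 tested genes for Igf ligands, receptors, binding proteins and their proteases, 1 rose and 4 fell in the endotoxemic group, where 20.4% of all tested rows rose and 23.0% fell, so that the counts do not set the list apart. Its median log2 fold change was −0.21. *Stc1*, a stanniocalcin that blocks the proteases of Igf binding proteins, had 32 and 1 counts with saline, 296 and 220 with LPS alone and 181 and 72 with LGK974 (log2 fold change 4.32, SE 0.92, edgeR adjusted p = 0.00496). The largest falls were those of *Igfbp5*, a matrix-bound binding protein (−3.01, edgeR adjusted p = 0.00773), and *Grb14*, an adaptor that inhibits the insulin receptor (−2.94, edgeR adjusted p = 0.000132). *Igfbp5* had 61 and 140 counts with saline, 11 and 6 with LPS alone and 61 and 250 with LGK974. It was higher in LGK974 than in endotoxemic livers (3.54, SE 0.70, edgeR adjusted p = 0.023), and *Grb14* was higher too, with an adjusted p just under the threshold (1.32, SE 0.33). *Igf2* had at most 6 counts in any library and was not tested. *Igf2r*, the receptor that clears Igf2, was lower in LGK974 than in control livers (−1.60), as was *Grb14* (−1.62).

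Of 11 tested genes for EGF ligands, ErbB receptors and their inhibitors, 3 rose and 3 fell in the endotoxemic group, shares near the 20.4% and 23.0% of all tested rows. The ligands *Ereg* (log2 fold change 4.10, SE 0.99, edgeR adjusted p = 0.00932) and *Hbegf* (1.87, SE 0.45, edgeR adjusted p = 0.00865) rose most. *Ereg* had 0 and 6 counts with saline, near the floor of 3 counts, 27 and 46 with LPS alone and 13 and 44 with LGK974. Its fold changes against the control group are therefore uncertain in size. *Hbegf* had 31 and 31 counts with saline, 77 and 88 with LPS alone and 17 and 37 with LGK974, and it was lower in LGK974 than in endotoxemic livers (−2.22, edgeR adjusted p = 0.026). The inhibitors *Spry4* and *Lrig3* fell most in the endotoxemic group (−1.51 and −1.29). Against the control group, the LGK974 group had higher *Ereg* (3.12) and lower *Spry4* (−1.75) and *Errfi1*, a cytoplasmic inhibitor of Egfr (−0.73). *Cbl*, a ubiquitin ligase that dampens the receptor, was the third gene that rose (1.49, edgeR adjusted p = 0.0088), so that an inhibitor was among the genes of either direction.

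**Figure D4:**
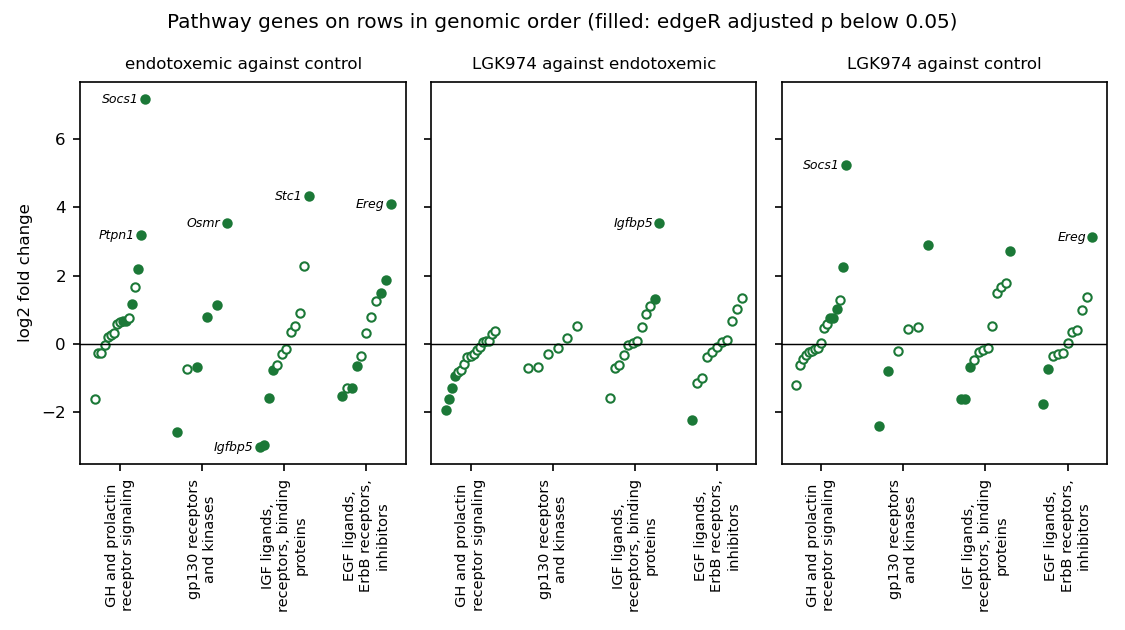
The log2 fold change (y axis) of each tested pathway gene on a row in genomic order, by list (x axis) and comparison (panels); filled points have an edgeR adjusted p below 0.05, and those past 3 in size are named. *Socs1* has the largest rise, 7.16 in endotoxemic against control livers.

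Because growth hormone sets the sex bias of liver genes, lists of male-biased and female-biased genes were placed beside the axis. In endotoxemic against control livers, whose libraries all had *Xist* counts, 17 of 20 female-biased genes fell and 3 did not pass (23.0% of all tested rows fell), with a median log2 fold change of −2.81. The largest falls were those of *Abcd2*, a peroxisomal transporter (log2 fold change −6.64, edgeR adjusted p = 2.85e-05), and *Cux2*, a female-specific transcription factor, which had 18 and 32 counts with saline and 0 and 1 with LPS alone (edgeR adjusted p = 0.0108). Of 17 male-biased genes, 7 fell and 2 rose, with a median of −0.58, where 23.0% of all rows fell and 20.4% rose. *Nudt7*, a coenzyme A hydrolase, and *Hsd3b5*, a steroid enzyme, fell most (−4.58 and −3.49), and *Ugt2b38* and *Cyp4a12a* rose (1.89 and 1.55). Genes of both lists fell, and the female-biased genes summed to 2349 and 2431 CPM with saline and 548.4 and 524.8 with LPS alone.

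In LGK974 against endotoxemic livers, 10 of 17 male-biased genes were higher and 7 did not pass (median log2 fold change 2.42), and 11 of 20 female-biased genes were lower and 2 higher (median −2.63), beside 2.80% of all rows higher and 2.82% lower. *Sult2a1*, a female-biased sulfotransferase, had 3118 and 4741 counts with saline, 247 and 240 with LPS alone and 0 in each LGK974 library, and *Sult2a2* was also at 0 in both LGK974 libraries. *Cyp4a12a*, a male-specific cytochrome P450, had 30 and 13 counts with saline, 53 and 41 with LPS alone and 3642 and 2272 with LGK974, and its near-identical copy *Cyp4a12b*, with which reads may be shared, rose as well (5.79). The female-biased genes *Tox* and *Trim24* were higher in the LGK974 group (1.60 and 1.56). Compared with the control group, 11 of 17 male-biased genes were higher and 18 of 20 female-biased genes were lower in the LGK974 group, beside 16.4% of all rows higher and 17.7% lower. Male-biased transcripts were present in every library and summed highest in those with Y-linked counts. The sum with LGK974 came largely from *Mup7*, *Serpina1e* and *Mup20*, with means of 5268, 4054 and 1873 CPM. *Elovl3* and *Hsd3b5* were among the male-biased genes with lower means with LGK974 than with saline (2.94 against 3.843 and 0.4828 against 2.527 CPM). *Prlr*, *Cish* and *Igfals* differed between the LGK974 and endotoxemic groups beside this difference in sex-linked and sex-biased transcripts, and the sex of the mice and the treatment cannot be told apart there.

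**Figure D5:**
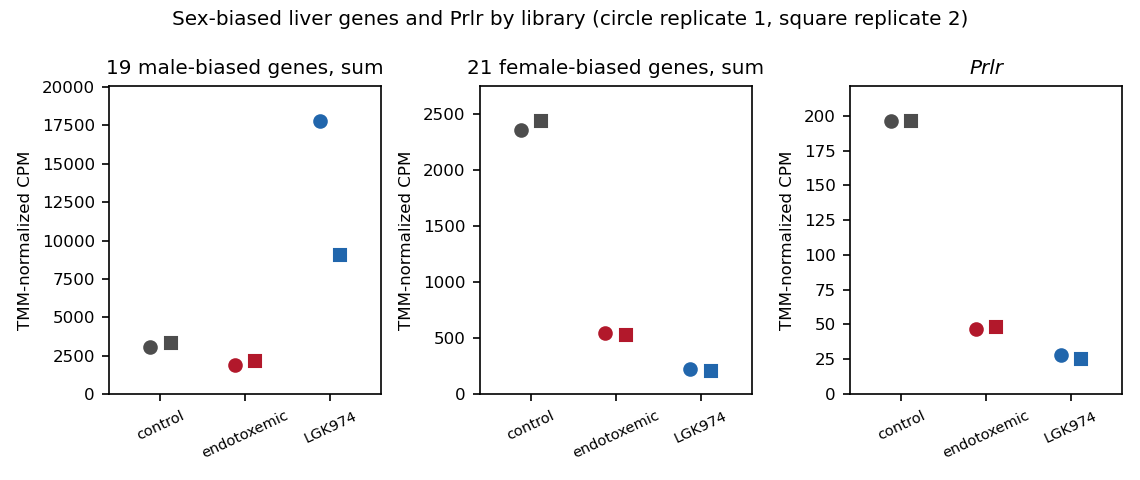
Summed CPM of 19 male-biased genes and of 21 female-biased genes on rows in genomic order, and the level of *Prlr*, in each library (y axes from 0; circle, replicate 1; square, replicate 2). The male-biased sum is 17790 and 9052 with LGK974, largely from *Mup7*, *Serpina1e* and *Mup20*, against at most 3337 elsewhere. The female-biased sum and *Prlr* are highest with saline and lowest with LGK974.

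Markers of other liver cells were measured beside the axis. Neutrophil markers on rows in order summed to 1.763 and 1.895 CPM with saline, 25.31 and 26.01 with LPS alone and 22.19 and 18.61 with LGK974, and all 3 that were tested rose in the endotoxemic group. *Camp*, a granule protein of neutrophils, was at 0 in both control libraries and had 85 and 69 counts with LPS alone. Of 6 Kupffer cell markers 3 fell and 1 rose, of 8 sinusoidal endothelial markers 4 fell and 1 rose, and of 8 stellate cell markers 5 fell and 1 rose, in a comparison where 23.0% of all rows fell and 20.4% rose. Lymphocyte markers summed to at most 8.847 CPM and cholangiocyte markers to between 29.08 and 92.3 CPM in a library. The cholangiocyte range followed *Sox9*, with means of 8.841 CPM with saline, 76.59 with LPS alone and 47.93 with LGK974. *Epcam*, *Krt19*, *Krt7* and *Spp1* had lower means with LPS alone than with saline. The part of the other liver cells in the levels of the 10 genes was not tested.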

How the data were processed

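Libraries from liver RNA were made by the authors with Lexogen QuantSeq, a 3′ end protocol. The authors deposited counts of reads per gene symbol as whole numbers without normalization. The submitters' processing notes name Bowtie2, edgeR and the mm10 build, and the counting program and its use of strand are not given in the sources used here.

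The 10 genes and all lists were chosen with earlier results of these data known. Counts of the 6 distinct libraries were fitted with edgeR 4.0.16 under R 4.3.3: filterByExpr by group, TMM, and 1 quasi-likelihood model of 3 groups (common biological coefficient of variation 0.239), with Benjamini-Hochberg adjustment over 12701 rows and a threshold of 0.05. The SE was derived from the F statistic, and 0.5 CPM was added for spreads between replicates. The script was tested on simulated data. Row order was compared with RefSeq positions on GRCm38, and coordinates come from GENCODE on the same build. DESeq2 1.42.0 was an alternative.

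Genes named are the 10, the 2 largest rises and 2 largest falls past the threshold of each list on rows in order, the sex-linked genes, the 5 rows closest to *Igf1*, and neighbours of misplaced rows. *Cbl*, *Igf2*, *Camp*, *Alb*, *Fgb*, *Mup7*, *Mup20*, *Serpina1e* and *Elovl3* were added after their values were seen. So were the cholangiocyte markers and genes named for the place of their rows. A gene of the lists is not reported here by name.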

Additional observations from a re-analysis of the deposited data

How the results depend on the processing

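For the 9 genes in order and *Egfr*, 403 values under an alternative kept their direction and side of the threshold, 15 passed it newly, 18 no longer passed and 7 changed sign or came to 0.00. These 7 were *Cish* in endotoxemic against control without endotoxemic replicate 2 (−0.21, where leaving out 1 library gave −0.21 to 0.45), *Socs2* in LGK974 against endotoxemic without LGK974 replicate 2 (range −2.84 to 0.00) and against control without LGK974 replicate 1 (range −0.26 to 2.58), *Igfbp1* in LGK974 against control without LGK974 replicate 2 (range −2.19 to 0.06), and *Egfr*, with 2.35 and 2.26 against control from the row at its genomic place and a range of −2.54 to 3.96 in LGK974 against endotoxemic without endotoxemic replicate 1. The cause was not tested. In LGK974 against endotoxemic, 356 rows were higher and 358 lower. They numbered 881 and 824 without a filter, 600 and 627 with DESeq2, 1711 and 1548 with identical libraries kept separate, and 107 and 162 with those groups alone in the fit. Leaving out 1 library gave 23 to 1175 higher and 26 to 1067 lower rows there, 1517 to 3196 and 1801 to 3523 for endotoxemic against control, and 1041 to 2608 and 1331 to 2761 for LGK974 against control.

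The labels number the libraries, but nothing says that a number marks mice handled together, and deviations of same-numbered libraries had correlations of −0.007 to 0.14. With the replicate block, 2577 rows were higher and 2908 lower in endotoxemic against control, 330 and 355 in LGK974 against endotoxemic, and 2048 and 2259 in LGK974 against control, and no call of the 10 genes changed.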
